A study of Mus musculus with 4 samples.

Results

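The transcripts of 10 genes of the hypoxia response and of glycolysis were followed in immortalized mouse dermal fibroblasts (imMDFs), with and without the nucleoplasmic protein LAP2alpha. Their transcripts were found by symbol, as *Hif1a*, *Egln3*, *Slc2a1*, *Hk2*, *Pfkp*, *Pgk1*, *Pdk1*, *Bnip3*, *Ddit4* and *Ankrd37*, and are 10 of the 23732 genes that the 32308 named transcript identifiers (IDs) of the count files belong to. Each gene is given by its ID with the most reads, and only *Pfkp* has a second one. Rows for these genes were present in every library, and all 10 passed the filter on low counts.

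RNA depleted of rRNA was sequenced from *Tmpo* KO imMDFs, whose genotype is labelled Lap2alpha -/-, and from *Tmpo* WT imMDFs, labelled Lap2alpha +/+. Each genotype has 1 library at passage 42 (replicate 2) and 1 at passage 34 (replicate 1), 4 libraries in all. The cells of both genotypes grew in the same serum-containing medium with no treatment, and no low-oxygen condition is part of the design. A single line stands for each genotype as far as the study describes them, so the effects of genotype and of line cannot be told apart. Whether the replicates were independent cultures is not stated, so the p-values measure only how much these libraries differ, and that spread may be technical. The comparisons ask how the transcripts differ in cells that lack LAP2alpha, a binding partner of A-type lamins in the nuclear interior, and how they differ between the passages.

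HIF-1 is a transcription factor made of the oxygen-regulated subunit HIF1A and its partner ARNT. In cells with enough oxygen, prolyl hydroxylases mark HIF1A for destruction through the VHL ubiquitin ligase, so the factor is controlled largely at the protein level, which RNA does not measure. When oxygen is short, HIF-1 raises genes for glucose uptake and glycolysis, for shunting pyruvate away from mitochondria, for removing mitochondria and for slowing growth. In fibroblasts the same program is known for its part in collagen modification and wound repair.

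HIF-1 binds DNA at the core ACGTG or GCGTG, and promoters of members were read for these letters because the genes are grouped by this factor. The 250 bases before the start of *Hk2*, *Egln3* and *Bnip3* are printed, since *Hk2* and *Egln3* had the smallest p-values between the genotypes and *Bnip3* had the most matches when each strand is counted. The sequences are from RefSeq (GRCm38.p6), and each was found at exactly 1 place in mm9, at chr6:82724449-82724698 for *Hk2*, at chr12:55304862-55305111 for *Egln3* and at chr7:146101190-146101439 for *Bnip3*, all on the minus strand. They run 5′ to 3′ in the direction of the gene, with a core on either strand in capitals, where CACGT and CACGC are the cores of the other strand.
Hk2: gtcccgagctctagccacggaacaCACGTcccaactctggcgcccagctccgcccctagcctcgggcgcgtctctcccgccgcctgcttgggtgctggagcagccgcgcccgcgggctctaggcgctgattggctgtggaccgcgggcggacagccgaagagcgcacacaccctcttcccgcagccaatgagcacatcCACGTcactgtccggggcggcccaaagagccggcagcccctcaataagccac
Egln3: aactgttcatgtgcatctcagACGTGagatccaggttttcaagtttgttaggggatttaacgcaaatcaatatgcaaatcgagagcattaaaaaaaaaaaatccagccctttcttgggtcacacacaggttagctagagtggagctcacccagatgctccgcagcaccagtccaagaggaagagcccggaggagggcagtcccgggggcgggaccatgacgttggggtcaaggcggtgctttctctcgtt
Bnip3: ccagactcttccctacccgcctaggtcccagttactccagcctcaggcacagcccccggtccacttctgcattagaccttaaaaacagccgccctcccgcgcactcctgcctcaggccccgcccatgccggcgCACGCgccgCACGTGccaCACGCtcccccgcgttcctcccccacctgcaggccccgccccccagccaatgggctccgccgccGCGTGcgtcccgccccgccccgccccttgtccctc
Within 300 bases (250 before the start and 50 after it), *Bnip3* had 5 matches, *Hk2* had 2 and *Egln3* had 1. *Ankrd37* and *Pfkp* had 4 each, *Hif1a* had 3, and *Slc2a1*, *Pgk1*, *Pdk1* and *Ddit4* had 2 each, with none at a second start of *Pdk1*. In *Bnip3* and *Hif1a* a CACGTG counts once on each strand, and as 1 site it would leave *Bnip3* level with *Ankrd37* and *Pfkp*. The count of *Ankrd37* also holds a stretch, CACGCGTG, in which a core on each strand overlaps the other, and both are counted here. At least 1 of the cores is in 43.8% of the 32851 mouse promoters of the same length, ACGTG in 19.6% and GCGTG in 32.4%, and 8.93% hold 3 or more. Such a match is a description of the letters, and binding was not measured here.

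Reads given to transcripts numbered between 12168433 and 19603812 per library. Replicates correlated at Pearson's r of 0.974 in *Tmpo* KO and 0.985 in *Tmpo* WT across transcripts, which are not independent. The *Tmpo* transcript NM_011605 had 6 reads in each *Tmpo* KO library, against 1324 and 903 reads in *Tmpo* WT at passages 42 and 34, so the targeted transcript and the labels match. Of 9 fibroblast markers, 7 had at least 10 CPM (reads scaled to a common library total) in every library, with sums of 11955 to 16202 CPM in *Tmpo* KO and 13207 to 14558 CPM in *Tmpo* WT. Of these, *Thy1* was higher in *Tmpo* KO (768 and 1286 CPM at passages 42 and 34, against 274 and 314 CPM in *Tmpo* WT, 1.80 on the log2 scale, edgeR adjusted p = 0.00469). That call was lost without the *Tmpo* WT library of passage 42. *Col1a1* (0.95, edgeR adjusted p = 0.00113) and *Fn1* (1.23, edgeR adjusted p = 5.9e-05) were higher at passage 42 than at passage 34. *Fn1* was counted only in reads unique to 1 of its 7 IDs. *Pdgfrb* was listed at 0, and its 2 IDs share exons, whose reads were not counted. Sums were 36.5 to 49.0 CPM against 34.8 to 42.4 CPM for 5 melanocyte markers, 12.2 to 15.7 CPM against 8.84 to 9.48 CPM for 6 leukocyte markers, and 11.7 to 16.5 CPM against 14.7 to 15.9 CPM for 6 keratinocyte markers, in *Tmpo* KO and WT. Of these markers only *Tyr* and *Csf1r* reached 10 CPM in any library. *Tyr* had 30 and 40 CPM in *Tmpo* KO at passages 42 and 34, against 35 and 26 CPM in *Tmpo* WT. *Csf1r* had 9.21 and 10.7 CPM against 5.21 and 5.54 CPM (edgeR adjusted p = 0.238). The markers of endothelial cells, adipocytes, skeletal muscle and erythroid cells summed to under 10 CPM each in every library, and the part of these cell types in the results was not tested. Of the markers outside fibroblasts, *Tek*, *Pecam1*, *Ptprc*, *Itgam* and *Plin1* have more than 1 ID each. Reads in exons shared by their IDs were not counted, so their low counts, with *Tek* and *Itgam* at 0, are no measure of their level.

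None of the 10 transcripts passed the test between *Tmpo* KO and WT, at a Benjamini-Hochberg adjusted p under 0.05 in edgeR's quasi-likelihood test over all 13855 tested transcripts. Against that count of 0, 381 transcripts passed among all tested, which is 2.75%. DESeq2 and edgeR's likelihood ratio test called 0 of the 10 as well. With passage as a further term (the replicate block) 1 of the 10 passed, *Hk2*, and so did 1 without the *Tmpo* KO library of passage 42 (*Hk2*) or of passage 34 (*Egln3*). The replicate block called 1092 of the 13855 tested transcripts, against 381 in the fit without it. A fit with 1 library left out has a single library in that genotype, which is assumed to vary like the other genotype's libraries. At an unadjusted p under 0.05 there were 2 of the 10, *Hk2* and *Egln3*, beside 12.8% of all transcripts tested. The fold change (*Tmpo* KO over WT) was above 0 for 7 of the 10 and below 0 for 3, with a median of 0.22 on the log2 scale, while 51.6% of all tested transcripts were above 0, with a median of 0.02. The 381 calls became 1291 and 842 without the *Tmpo* KO library of passage 42 or 34, and 109 and 175 without the *Tmpo* WT library of passage 42 or 34.

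**Figure D1:**
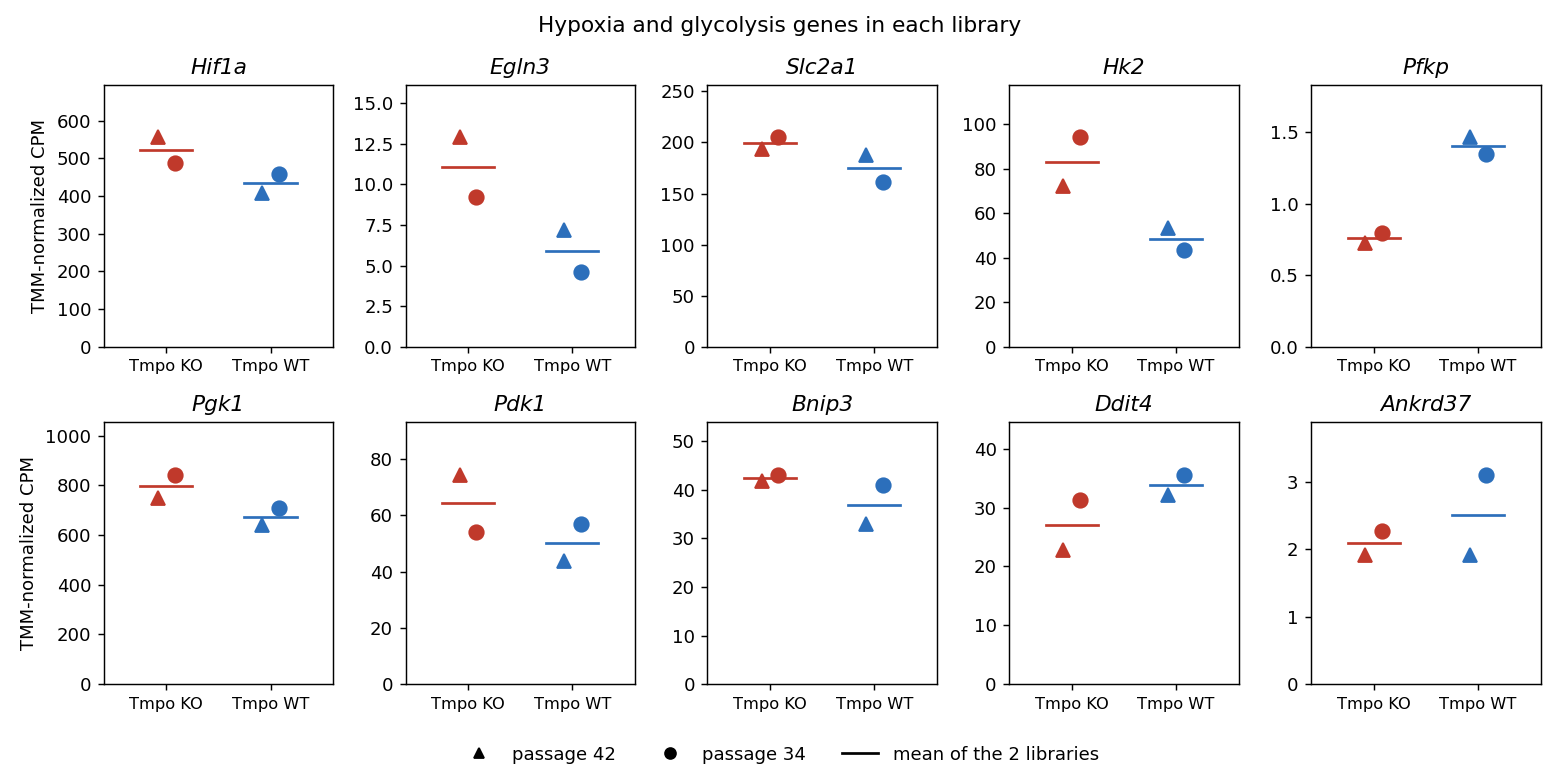
TMM-normalized CPM of each of the 10 transcripts in each library, with *Tmpo* KO left of *Tmpo* WT, triangles for passage 42, circles for passage 34 and a line at the mean of the 2 libraries. Both *Tmpo* KO libraries lay above both *Tmpo* WT libraries for 6 genes and below them for 2, *Pfkp* and *Ddit4*.

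In 8 of the 10 genes the libraries of the genotypes did not overlap, 6 with both *Tmpo* KO libraries higher and 2 with both lower, of which *Pfkp* owed its place in the test to the *Tmpo* WT libraries alone. Among all tested transcripts 21.9% were higher in this sense and 20.0% were lower. In bulk RNA, fewer cells that express a gene and less RNA per cell cannot be told apart. Levels below are CPM scaled by edgeR's TMM factors, and fold changes are log2 values, *Tmpo* KO over WT, with their standard error (SE).

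Among the members that form and tune the factor, *Hif1a* (NM_010431, chr12:75002362-75048517 of mm9, plus strand) encodes the oxygen-regulated subunit of HIF-1. At passages 42 and 34 it had 555 and 487 CPM in *Tmpo* KO, against 407 and 459 CPM in *Tmpo* WT. The fold change was 0.27 (SE 0.206, edgeR adjusted p = 0.704), with a 95% interval of -0.18 to 0.72. Both *Tmpo* KO libraries were above both *Tmpo* WT libraries, but the interval includes 0 and the transcript did not pass. A noncoding gene on the other strand, Gm15283, shares 330 exon bases with *Hif1a*, and whether the counting used strand is unknown, so reads of the pair may be mixed.

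*Egln3* (NM_028133, chr12:55279968-55304847, minus strand) encodes the prolyl hydroxylase PHD3, which marks HIF subunits for destruction and is itself known as a HIF target. It had 12.9 and 9.20 CPM in *Tmpo* KO at passages 42 and 34, against 7.19 and 4.62 CPM in *Tmpo* WT, from 249, 150, 113 and 55 reads in that order. The genotype means were 11.0 ± 2.61 and 5.90 ± 1.82 CPM (SD, n = 2 each). Its fold change, 0.90 (SE 0.354, 95% interval 0.12 to 1.68), was the largest of the 10 and had an unadjusted p of 0.0275 and an adjusted p of 0.292 in edgeR. The transcript, whose promoter is printed above, did not pass, although its libraries did not overlap. It passed only without the *Tmpo* KO library of passage 34 (1.10, edgeR adjusted p = 0.0496). The adjusted p lay between 0.0496 and 0.970 with 1 library left out, and between 0.0778 and 0.310 under the other alternatives.

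Glucose enters fibroblasts mainly through GLUT1, the product of *Slc2a1* (NM_011400, chr4:118781316-118809935, plus strand). Its transcript had 194 and 205 CPM in *Tmpo* KO at passages 42 and 34, against 188 and 161 CPM in *Tmpo* WT. The fold change was 0.19 (SE 0.196, 95% interval -0.24 to 0.62, edgeR adjusted p = 0.800). At passage 42 the genotypes were almost level, and the lowest of the 4 values was that of *Tmpo* WT at passage 34. Gm12868 on the other strand shares 105 of its exon bases.

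*Hk2* (NM_013820, chr6:82675019-82724448, minus strand) encodes hexokinase 2, which traps glucose in the cell by phosphorylating it. It had 72.2 and 94.2 CPM in *Tmpo* KO at passages 42 and 34, against 53.6 and 43.6 CPM in *Tmpo* WT. The means were 83.2 ± 15.5 CPM in *Tmpo* KO and 48.6 ± 7.11 CPM in *Tmpo* WT (SD, n = 2 each). Of the 10 genes it had the smallest p, with a fold change of 0.78 (SE 0.226, 95% interval 0.28 to 1.27), an unadjusted p of 0.00557 and an adjusted p of 0.123 in edgeR. *Hk2* therefore did not pass over all transcripts, while its libraries did not overlap and its interval did not reach 0. Without the *Tmpo* KO library of passage 42 it passed (0.91, edgeR adjusted p = 0.0146), and with any other library left out it did not, at adjusted p-values up to 0.658. With passage as a further term *Hk2* passed too (0.77, edgeR adjusted p = 0.00567), in a fit that called 1092 transcripts in all. Under the other alternatives that kept all libraries the adjusted p of *Hk2* lay between 0.0726 and 0.136.

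*Pfkp* (NM_019703, chr13:6579014-6648023, minus strand), the platelet isoform of phosphofructokinase, was at the edge of detection. It had 14 and 13 reads in *Tmpo* KO at passages 42 and 34, against 23 and 16 reads in *Tmpo* WT, which is 0.724 and 0.797 CPM against 1.46 and 1.34 CPM. It entered the test only through the *Tmpo* WT libraries, so its direction was favoured by the filter and supports nothing. The fold change was -0.88 (SE 0.432, 95% interval -1.83 to 0.07, edgeR adjusted p = 0.444). Only reads unique to 1 of its 2 IDs were counted, the other ID (NM_001291071) had 2, 0, 2 and 2 reads in the same order of libraries, and Pitrm1 on the other strand shares 372 exon bases.

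*Pgk1* (NM_008828, chrX:103382439-103399038, plus strand), whose enzyme makes ATP in the lower part of glycolysis, had the highest level of the 10 per length of exon, at a mean of 328 CPM per kb over the 4 libraries. It had 749 and 843 CPM in *Tmpo* KO at passages 42 and 34, against 640 and 708 CPM in *Tmpo* WT. The fold change was 0.24 (SE 0.210, 95% interval -0.22 to 0.70, edgeR adjusted p = 0.750). RefSeq names 3 copies of the gene elsewhere (Pgk1-ps1, Pgk1-ps3 and Pgk1-rs7), so the division of its reads is less certain. Per length, *Hif1a* (80.9 CPM per kb) and *Slc2a1* (65.6 CPM per kb) came next, and *Ankrd37* was the lowest of the 9 that can be compared, at 1.64 CPM per kb.

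*Pdk1* (NM_172665, chr2:71711281-71741915, plus strand) encodes a kinase that shuts off pyruvate dehydrogenase and so keeps pyruvate out of mitochondria. It had 74.5 and 54.0 CPM in *Tmpo* KO at passages 42 and 34, against 43.8 and 56.8 CPM in *Tmpo* WT. The libraries of the genotypes overlapped, because *Tmpo* WT at passage 34 lay above *Tmpo* KO at the same passage. By library totals alone, without TMM factors, these were 55.6 CPM in *Tmpo* WT and 55.8 CPM in *Tmpo* KO, and the genotypes did not overlap. The fold change was 0.35 (SE 0.240, 95% interval -0.17 to 0.88, edgeR adjusted p = 0.637).

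The remaining members act on mitochondria, growth and less known steps. *Bnip3* (NM_009760, chr7:146082519-146101202, minus strand), a receptor for the removal of mitochondria, had 41.7 and 43.1 CPM in *Tmpo* KO at passages 42 and 34, against 32.9 and 40.9 CPM in *Tmpo* WT. The fold change was 0.20 (SE 0.228, 95% interval -0.30 to 0.70, edgeR adjusted p = 0.833). That fold change was among the smaller ones.

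*Ddit4* (NM_029083, chr10:59412423-59414518, minus strand) encodes REDD1, a stress-induced inhibitor of the growth kinase complex mTORC1. It had 22.8 and 31.3 CPM in *Tmpo* KO at passages 42 and 34, against 32.0 and 35.6 CPM in *Tmpo* WT. The *Tmpo* KO libraries were lower without overlap, unlike most members, and the fold change was -0.32 (SE 0.252, 95% interval -0.88 to 0.23, edgeR adjusted p = 0.709). *Ankrd37* (NM_001039562, chr8:47082256-47085221, minus strand), an ankyrin repeat gene known as a HIF-1 target, had 37 and 37 reads in *Tmpo* KO at passages 42 and 34, against 30 and 37 reads in *Tmpo* WT. These are 1.91 and 2.27 CPM against 1.91 and 3.10 CPM, which overlap. Its fold change was -0.25 (SE 0.421, 95% interval -1.17 to 0.68, edgeR adjusted p = 0.897), and it was 0.15 without the *Tmpo* WT library of passage 34. Exons of *Ankrd37* share 349 bases with Lrp2bp and 57 bases with Ufsp2 on the other strand.

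**Figure D2:**
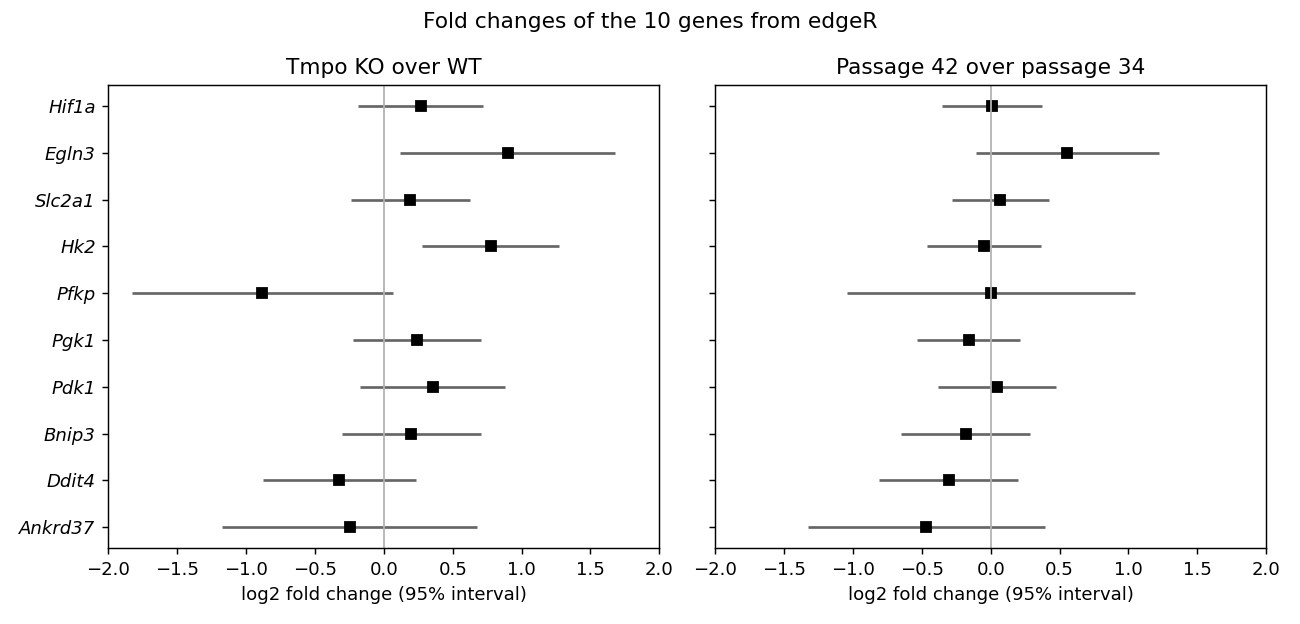
Log2 fold changes of the 10 transcripts from edgeR with 95% intervals as lines, *Tmpo* KO over WT on the left and passage 42 over passage 34 on the right. Between the genotypes the intervals of *Hk2* (0.28 to 1.27) and *Egln3* (0.12 to 1.68) lie above 0 and the other 8 cross it, and all 10 cross 0 between the passages.

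Within a passage, with 1 library per genotype and no test, differences are log2 CPM (*Tmpo* KO minus WT), and the intervals cover counting error only. *Hk2* differed by 0.43 at passage 42 (0.31 to 0.56) and by 1.11 at passage 34 (0.97 to 1.26). *Egln3* differed by 0.83 at passage 42 (0.52 to 1.18) and by 0.98 at passage 34 (0.54 to 1.47). The sign of both held at either passage, which follows from their libraries not overlapping between the genotypes and adds nothing to it. For *Hk2* the counting intervals of the passages did not overlap. Whether the passages differ in this could not be tested, since a fit with genotype, passage and their interaction leaves no residual degrees of freedom.

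*Pdk1* was 0.76 higher in *Tmpo* KO at passage 42 (0.63 to 0.90), while at passage 34 the difference was -0.07 (-0.22 to 0.07). *Hif1a* differed by 0.45 at passage 42 and by 0.09 at passage 34, *Bnip3* by 0.34 and 0.07, and *Slc2a1* by 0.05 and 0.35. *Pgk1* was the most even member, with 0.23 at passage 42 and 0.25 at passage 34. *Ddit4* was lower in *Tmpo* KO at both passages, with -0.49 at passage 42 and -0.18 at passage 34, and *Pfkp* with -0.90 and -0.67. *Ankrd37* differed by 0.00 and -0.43. A difference of at least 1 in size, a doubling or more, was reached by 0 of the 10 at passage 42, where 8.16% of all tested transcripts reached it, and by 1 of the 10, *Hk2*, at passage 34, where 10.9% did. The sign differed between the passages for *Pdk1* and *Ankrd37*, 2 of the 10, as it did for 40.5% of all tested transcripts. Both changes of sign depended on the TMM factors. By library totals alone *Pdk1* at passage 34 had 55.8 CPM in *Tmpo* KO and 55.6 CPM in *Tmpo* WT. *Ankrd37* at passage 42 then had 1.89 CPM in *Tmpo* KO and 1.91 CPM in *Tmpo* WT.

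**Figure D3:**
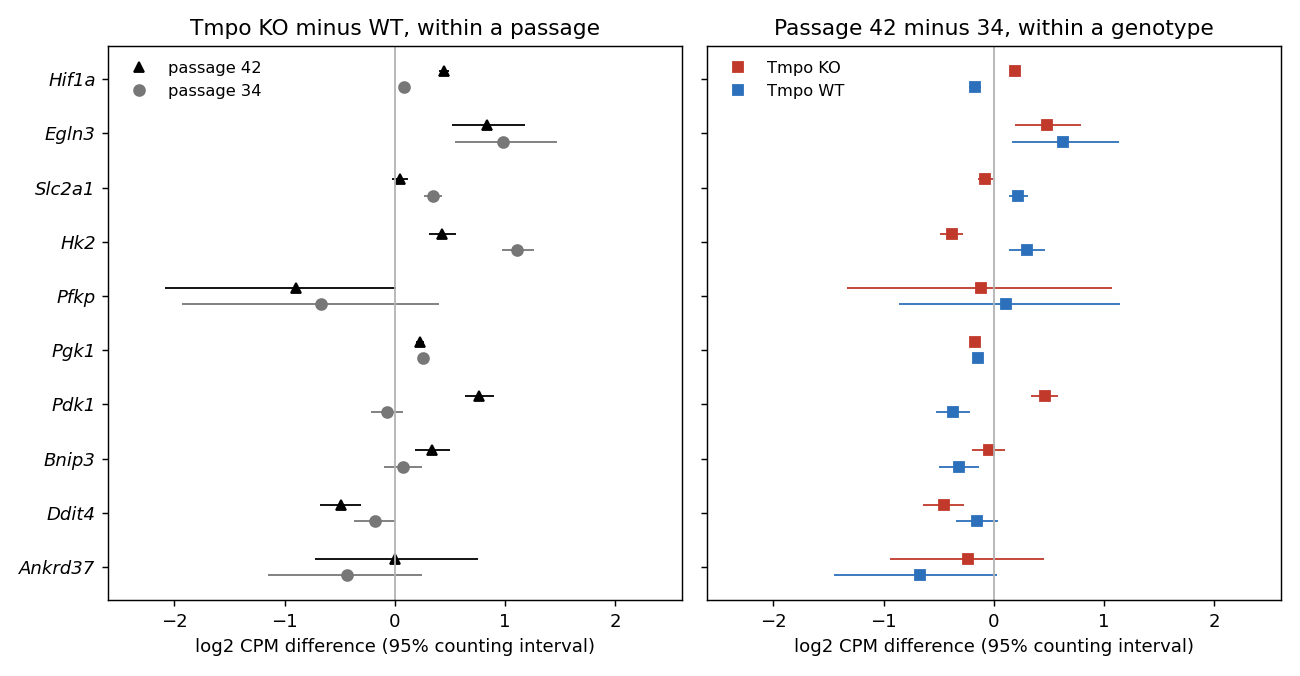
Log2 CPM differences of the 10 transcripts between single libraries with 95% counting intervals, *Tmpo* KO minus WT at passage 42 (triangles) and passage 34 (circles) on the left, and passage 42 minus 34 in *Tmpo* KO and in *Tmpo* WT on the right. *Egln3* lies above 0 in all 4 contrasts, and the passage difference of *Pdk1* lies above 0 in *Tmpo* KO (0.46) and below it in *Tmpo* WT (-0.37).

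Between passage 42 and passage 34, with genotype as a term of the fit, none of the 10 passed in edgeR, beside 320 of the tested transcripts (2.31%). At an unadjusted p under 0.05 there were 0 of the 10, beside 11.6% of all, and DESeq2 and the likelihood ratio test called 0 of them too. Of the fold changes (passage 42 over passage 34), 5 were above 0 and 5 below, while 51.0% of all tested transcripts were above 0, and the median was -0.02, against 0.01 over all tested transcripts. This fit has 1 residual degree of freedom, and its total of 320 was 34 in DESeq2 and 0 without the genotype term.

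*Egln3* had the largest fold change between the passages, 0.56 (SE 0.339, edgeR adjusted p = 0.570), with 0.48 in *Tmpo* KO and 0.62 in *Tmpo* WT as single differences. *Ankrd37*, at -0.47 (SE 0.439, edgeR adjusted p = 0.789), was the only member whose libraries did not overlap between the passages, with both lower at passage 42, and among all tested transcripts 15.8% were lower in this sense and 18.0% higher. *Ddit4* had -0.31 (SE 0.257, edgeR adjusted p = 0.757). For 5 of the 10, *Hif1a*, *Pdk1*, *Hk2*, *Slc2a1* and *Pfkp*, the difference between the passages ran in opposite directions in the genotypes, as it did for 44.3% of all tested transcripts.

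*Hk2* was lower at passage 42 in *Tmpo* KO (-0.38) and higher in *Tmpo* WT (0.30), and its fold change between the passages was -0.05. *Pdk1* had 0.46 in *Tmpo* KO and -0.37 in *Tmpo* WT, and *Hif1a* had 0.19 and -0.17. *Slc2a1* had -0.08 in *Tmpo* KO and 0.22 in *Tmpo* WT. None of these opposite pairs could be tested. A passage difference of at least 1 in size was reached by 0 of the 10 in *Tmpo* KO, where 8.51% of all tested transcripts reached it, and by 0 of the 10 in *Tmpo* WT, where 3.36% did. *Pgk1* (-0.17 and -0.15), *Bnip3* (-0.05 and -0.32) and *Ddit4* (-0.46 and -0.15) were lower at passage 42 in *Tmpo* KO and in *Tmpo* WT alike.

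The other genes of these pathways were described by lists outside the 10 members, given by their counts with no test of a list. Of 79 genes, 64 were tested. The 15 untested genes, among them *Ldha*, *Gapdh*, *Vegfa* and *Arnt*, have more than 1 ID each, and reads in exons shared by IDs were not counted. Their low counts are therefore no measure of their level, and the lists do not cover them. Among the tested genes *Hk1*, *Aldoa*, *Pkm*, *Plod2*, *Lox*, *Mxi1*, *Bcl2* and *Sesn1* also have more than 1 ID. Their values rest on reads unique to 1 ID. Between the genotypes 4 of the 64 passed, 2 higher and 2 lower in *Tmpo* KO, beside 1.51% and 1.24% of all tested transcripts. Both that were higher belong to the HIF targets outside glycolysis, of which 19 of 24 were tested, with a median fold change of 0.30 and 0 lower calls. *Stc2*, stanniocalcin 2, a secreted glycoprotein, had 14.1 and 11.5 CPM in *Tmpo* KO at passages 42 and 34, against 3.37 and 2.52 CPM in *Tmpo* WT (2.11, SE 0.349, edgeR adjusted p = 0.00800). *Car12*, a carbonic anhydrase of the cell surface, had 5.23 and 5.70 CPM against 1.14 and 1.17 CPM (2.23, SE 0.401, edgeR adjusted p = 0.0125). Each rose in both *Tmpo* KO libraries.

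The classical target *Adm*, the vasodilator adrenomedullin, did not pass (1.09, edgeR adjusted p = 0.329). It had 75.5 and 21.3 CPM in *Tmpo* KO at passages 42 and 34, against 19.4 and 26.3 CPM in *Tmpo* WT, so the higher mean came from 1 library, and without it the fold change was -0.14. With passage as a further term, where 1092 transcripts passed in all, *Adm* passed (0.85, edgeR adjusted p = 0.0228). *Adm* also passed with no filter on low counts. Without the *Tmpo* KO library of passage 34, where the high library alone stands for that genotype, it passed too. *Gys1*, glycogen synthase, had 0.50 (edgeR adjusted p = 0.296). The calls of *Stc2* and *Car12* were lost without either *Tmpo* WT library, at adjusted p-values of 0.0837 and 0.104 for *Stc2* and 0.245 and 0.142 for *Car12* without passage 42 or 34. The fold changes were then 2.34 and 1.94 for *Stc2* and 2.21 and 2.26 for *Car12*.

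Of the pyruvate dehydrogenase complex and its regulators outside *Pdk1*, 9 of 10 genes were tested, with 0 higher, 1 lower and a median of -0.22. *Pdk4*, another kinase of pyruvate dehydrogenase, known for its rise in fasting, fell to 4.24 and 4.29 CPM in *Tmpo* KO at passages 42 and 34, against 18.6 and 22.6 CPM in *Tmpo* WT (-2.27, SE 0.307, edgeR adjusted p = 0.00269). Its relative *Pdk1* did not pass. The catalytic subunit genes *Pdha1* (-0.37) and *Pdhb* (-0.34) did not pass, at edgeR adjusted p-values of 0.519 and 0.543, nor did *Dld* (0.40, edgeR adjusted p = 0.546).

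Among 14 genes of mitophagy and of the DDIT4 and mTORC1 pathway, 12 were tested, with 0 higher, 1 lower and a median of -0.17. *Ddit4l*, the relative of *Ddit4* known as REDD2, fell to 1.66 and 2.64 CPM in *Tmpo* KO at passages 42 and 34, against 6.49 and 8.81 CPM in *Tmpo* WT (-1.83, SE 0.395, edgeR adjusted p = 0.0325). That call was lost without the *Tmpo* WT library of passage 42 (-2.04, adjusted p = 0.185) or 34 (-1.58, adjusted p = 0.334). The sestrin genes *Sesn1* (-0.69) and *Sesn2* (0.51) and the mitophagy receptor gene *Fundc1* (-0.58) did not pass, at edgeR adjusted p-values of 0.477, 0.494 and 0.359.

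Of 19 further glycolysis genes, 14 were tested and 0 passed in edgeR, DESeq2 or the likelihood ratio test, with 6, 4 and 6 at an unadjusted p under 0.05. Among all tested transcripts 12.8% were under it in edgeR. The median of the 14 was 0.28, with 10 above 0 and 4 below. Over all tested transcripts the median was 0.02, with 51.6% above 0. *Slc16a1*, the lactate transporter MCT1, came closest, with 175 and 189 CPM in *Tmpo* KO at passages 42 and 34, against 104 and 118 CPM in *Tmpo* WT (0.71, SE 0.196, edgeR adjusted p = 0.100). With passage as a further term, where 1092 transcripts passed in all, *Slc16a1* passed (edgeR adjusted p = 0.00223). *Ldhb* (0.67) and *Pfkl* (0.48) had edgeR adjusted p-values of 0.271 and 0.298. *Aldoa* (1.12, edgeR adjusted p = 0.354) was counted only in reads unique to 1 of its 3 IDs and entered the test only through the *Tmpo* KO libraries, so its direction was favoured by the filter. With 1 CPM required in all 4 libraries it dropped out, leaving 13 genes tested and 5 at an unadjusted p under 0.05. *Pfkfb4*, which makes a regulator of phosphofructokinase and was named after its values were seen, ran the other way, with 31.7 and 23.1 CPM in *Tmpo* KO at passages 42 and 34, against 40.8 and 40.6 CPM in *Tmpo* WT (-0.57, edgeR adjusted p = 0.355). Of 12 HIF factors and regulators, 10 were tested and 0 passed in any of these 3 tests, with 1 at an unadjusted p under 0.05 in each, and the median was 0.05. That gene was *Arnt2*, a partner of HIF subunits best known in neurons (-0.79, edgeR adjusted p = 0.278), while *Siah2* had 0.35, *Vhl* had -0.28 and *Cited2* had 0.18, at edgeR adjusted p-values of 0.610, 0.741 and 0.853.

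**Figure D4:**
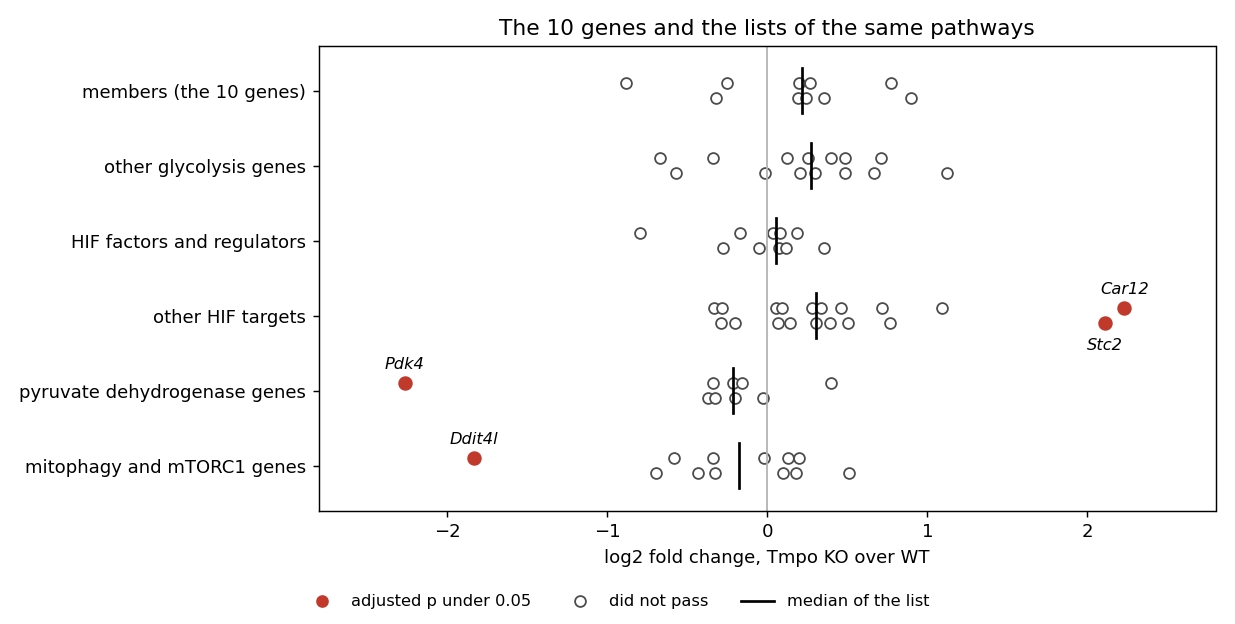
Log2 fold change (*Tmpo* KO over WT) of each tested gene of the 10 members and of 5 lists of the same pathways, with filled points for an adjusted p under 0.05 in edgeR and a vertical line at each list's median. *Car12* (2.23) and *Stc2* (2.11) passed above 0, *Ddit4l* (-1.83) and *Pdk4* (-2.27) passed below it, and none of the 10 members passed.

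Between the passages, 4 of the 64 list genes passed, 2 higher and 2 lower at passage 42, beside 1.77% and 0.541% of all tested transcripts. The coactivator genes *Crebbp* (0.66, SE 0.182, edgeR adjusted p = 0.0208) and *Ep300* (0.59, SE 0.182, edgeR adjusted p = 0.0495), whose products bind HIF, were higher at passage 42. *Crebbp* had 388 and 391 CPM at passage 42 in *Tmpo* KO and WT, against 256 and 237 CPM at passage 34. *Bhlhe40*, a repressor of transcription (-0.82, SE 0.231, edgeR adjusted p = 0.0251), and *Lox*, an enzyme that crosslinks collagen (-0.79, SE 0.237, edgeR adjusted p = 0.0428), were lower. *Lox* was counted only in reads unique to 1 of its 3 IDs. *Bhlhe40* had 35.7 and 86.5 CPM in *Tmpo* KO at passages 42 and 34, against 31.6 and 40.2 CPM in *Tmpo* WT. Its difference came mostly from *Tmpo* KO at passage 34, with -1.27 in *Tmpo* KO and -0.35 in *Tmpo* WT. All 4 calls were lost in DESeq2, at adjusted p-values of 0.347, 0.509, 0.397 and 0.294 in that order, and in edgeR's likelihood ratio test. *Car9*, a carbonic anhydrase and classical HIF target, had 1.22 (edgeR adjusted p = 0.102). Of the glycolysis, pyruvate dehydrogenase and mitophagy lists, 0 genes passed in edgeR, DESeq2 or the likelihood ratio test, with 0, 1 and 1 gene at an unadjusted p under 0.05 in edgeR. Among all tested transcripts 11.6% were under it.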

How the data were processed

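Total RNA depleted of rRNA was sequenced in 4 libraries, and the deposited files hold raw counts made by the authors, who trimmed adapters (cutadapt), mapped reads to mm9 (TopHat2 2.0.9) and counted those above a mapping quality minimum over RefSeq transcripts (htseq-count). Each transcript ID is a feature of its own, so reads in exons shared by IDs went to the ambiguous reads (12.1% to 13.4%), and 49.9% to 56.5% of reads fell in no feature; both stayed out of library sizes. For the strand setting and other versions no source used here gives a value.

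Symbols were matched to 32308 of 32757 IDs through RefSeq (GRCm38.p6), and positions are from NCBIM37. Transcripts with at least 1 CPM in both libraries of at least 1 genotype were tested in edgeR 4.0.16 (R 4.3.3) by quasi-likelihood F-tests after TMM scaling, at an adjusted p (Benjamini-Hochberg) under 0.05, for genotype alone and for passage with a genotype term. The SE is the fold change over the square root of F. Within-passage differences use a prior count of 2 and exact binomial 95% intervals. The members and lists were chosen with earlier results of these data known. Named are the members and, per list, up to 4 genes with the smallest p in each comparison, of which the text gives a part. Alternatives were RLE factors, library totals, DESeq2 1.42.0, the likelihood ratio test, other filters, counts per gene, a prior of 0.5, a replicate block, no genotype term and each library left out. The fits were tested on simulated data. Tables and plots were made in Python 3.11.15 (pandas 2.3.3, scipy 1.17.1, numpy 2.4.6, matplotlib 3.10.9).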

Additional observations from a re-analysis of the deposited data

Results flagged for a closer look

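Single libraries gave *Tmpo* KO minus WT differences of opposite sign at the passages for 2 of the 10 genes, beside 40.5% of all tested transcripts, and passage differences of opposite sign in the genotypes for 5 of the 10, beside 44.3%. None of these pairs could be tested. *Pdk1* differed between *Tmpo* KO and WT by 0.76 (log2 CPM) at passage 42 and by -0.0718 at passage 34, and between passage 42 and 34 by 0.46 in *Tmpo* KO and -0.37 in *Tmpo* WT. The *Tmpo* KO minus WT difference of *Ankrd37* was 0.00499 at passage 42 and -0.43 at passage 34, at 30 to 37 reads per library. By library totals alone, without TMM factors, neither *Pdk1* nor *Ankrd37* changed sign between the passages. *Pdk1* then had 55.8 and 55.6 CPM in *Tmpo* KO and WT at passage 34, and *Ankrd37* had 1.89 and 1.91 CPM at passage 42. Between passage 42 and 34, *Hk2* differed by -0.38 in *Tmpo* KO and 0.30 in *Tmpo* WT, and *Hif1a* by 0.19 in *Tmpo* KO and -0.17 in *Tmpo* WT. *Slc2a1* differed by -0.0803 in *Tmpo* KO and 0.22 in *Tmpo* WT, and *Pfkp* by -0.12 and 0.11, at 13 to 23 reads per library.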

How the results depend on the processing

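The count of transcripts called between *Tmpo* KO and WT, 381 in edgeR's quasi-likelihood test, was 638 with the likelihood ratio test, 740 with no filter on low counts and 1092 with the replicate block, and 109 to 1291 with 1 library left out. The replicate number is the passage, and no source pairs the libraries beyond it (correlation of same-numbered deviations 0.175). Of the members, the replicate block changed the call of *Hk2* (0.77, edgeR adjusted p = 0.00567), and of the listed genes those of *Slc16a1*, *Adm* and *Lox*. The count between the passages, 320, was 34 in DESeq2, 189 with the likelihood ratio test, 145 with 1 CPM required in all 4 libraries and 0 with no genotype term, where all 4 calls among the listed genes were lost too.

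With 1 library left out, values of *Ankrd37* ran from -0.57 to 0.15, of *Cited2* from -0.0766 to 0.40 and of *Adm* from -0.14 to 1.72. Between the passages, *Pfkp* turned to -0.0140 with RLE factors, -0.00875 with library totals and -0.0230 in DESeq2, and *Hif1a* to -0.00963, -0.00777 and -0.00968 in that order and -0.00636 with 1 CPM in all 4 libraries. The cause was not tested. *Pfkp* had no value under that filter, and the passage fit with 1 library left out has no residual degrees of freedom and was not run as a test. A prior count of 0.5 left all 40 single-library differences within their counting intervals. Every other member kept its sign between the genotypes under all alternatives run. At 13 to 37 reads per library, the counting intervals of *Pfkp* and *Ankrd37* included 0 in all 4 contrasts.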
